A study of Mus musculus with 8 samples.

Results

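The proteasome genes of the mouse, apart from the immunoproteasome catalytic genes Psmb8, Psmb9 and Psmb10, were followed across 8 arrays of a nerve sheath tumour under kinase inhibitors. A gene was included when an array probe set carried its symbol alone and that symbol was Psm with a letter from a to g and a number. For a gene with several such probe sets, the one with the highest mean over the 8 arrays was used. This gave 47 of the 19938 genes measured, from 53 probe sets. Of the 47 genes, 43 encode subunits, assembly chaperones or regulators of the proteasome that most cells use. The other 4 matched the symbol pattern only or are tissue-restricted: Psma8, an alpha subunit of spermatogenic cells, Psmb11, the catalytic subunit of the thymus, and Psmc3ip and Psme3ip1, whose products are not proteasome subunits.

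The arrays measured RNA of primary malignant peripheral nerve sheath tumours from NPcis mice, in which Nf1 and Trp53 are mutated on the same chromosome. All 8 arrays are of this model, and the treatment lasted 14 h in each group of 2 arrays. Vehicle was the control. Rapamycin, an inhibitor of mTORC1, was given at 5 mg/kg into the peritoneum. PD-0325901, an inhibitor of the kinase MEK, was given at 1.5 mg/kg by gavage with 2 doses per day, and the combination group received both drugs. The labels give neither the composition of the vehicle nor the age and sex of the mice. The labels do not say whether the arrays of a group come from separate animals, so p-values measure only the spread between these samples, which may be technical.

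The 26S proteasome degrades proteins tagged with ubiquitin. Its 20S core is a stack of rings of alpha and beta subunits with 3 kinds of catalytic site, and its 19S cap recognises, unfolds and deubiquitinates the substrate. The transcription factor Nfe2l1 raises most subunit genes together when proteasome activity is short, and mTORC1 signalling has been connected to the expression of these genes.

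The sequences that connect these genes to that control are short. A search of the RefSeq promoter windows, which run from 250 bases before to 50 after a gene's start on GRCm38.p6, covered 39 of the 47 genes. The 8 others were Psma8, Psmb1, Psmb2, Psmb7, Psmc3, Psmd3, Psmd7 and Psmg2. The motif TGACNNNGC, the core of the antioxidant response element to which Nfe2l1 and Nfe2l2 bind, was looked for on both strands. It stood in the windows of 6 genes, which are printed 5′ to 3′ on the strand of the gene, with the match in capitals and up to 10 bases on either side. In Psmc6, Psmd12 and Psme4 the match lies on the opposite strand and the capitals show its reverse complement.
Psmb5, chr14:54618024-54618052, minus strand: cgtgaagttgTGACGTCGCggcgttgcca
Psmb6, chr11:70525338-70525366, plus strand: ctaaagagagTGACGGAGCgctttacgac
Psmc6, chr14:45329587-45329615, plus strand: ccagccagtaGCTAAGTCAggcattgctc
Psmd9, chr5:123228149-123228177, plus strand: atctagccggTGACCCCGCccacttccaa
Psmd12, chr11:107479278-107479299, plus strand: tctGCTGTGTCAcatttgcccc
Psme4, chr11:30771758-30771786, plus strand: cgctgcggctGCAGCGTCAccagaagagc

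Counted from the first base of the gene, the match began at -47 in Psmb5, -9 in Psmb6, -227 in Psmc6, -31 in Psmd9, -247 in Psmd12 and -7 in Psme4. The 6 genes are 15.4% of the 39 searched, and 14.0% of the 27025 genes in the table held the motif. The NF-Y box CCAAT, searched the same way, stood in the windows of 15 of the 39 genes (38.5%) against 41.1% of all genes. No gene held both motifs, and no match overlapped the other motif. Neither share stood far from that of all promoters of the same length. The 6 matched genes cover a pair of catalytic subunits, an ATPase, a lid subunit, a base chaperone and an activator.

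Values are log2 levels as deposited, and the arrays had medians of 7.79 to 7.90. No array stood apart in its median. Of 6 measured Schwann cell markers, S100b (7.12 to 7.32), Erbb3 (7.25 to 7.56) and Foxd3 (7.11 to 7.24) lay below the array medians on all arrays. Sox10 (7.85 to 8.17) lay near them, and Ngfr (8.38 to 8.68) and Mbp (8.01 to 8.44) lay above. The list of ERK target genes lay lower with PD-0325901 than with vehicle in 9 of 10 genes, with a median log2 difference of -0.55. In bulk tumours, fewer cells of a type and less RNA per cell cannot be told apart.

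Most of the 47 proteasome genes leaned the same way between the 2 arrays of a group, and in each group the median of the genes lay above 0 on 1 array and below 0 on the other. After subtraction of every gene's own mean over the 8 arrays, the median of the 47 values was 0.13 and -0.03 on the vehicle arrays 1 and 2. It was -0.21 and 0.17 on the rapamycin arrays, 0.11 and -0.05 on the PD-0325901 arrays, and 0.08 and -0.27 on the combination arrays. The lowest arrays were thus the second of the combination and the first of rapamycin, and the highest was the other rapamycin array. Array numbers are names and pair no samples across groups.

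**Figure D1:**
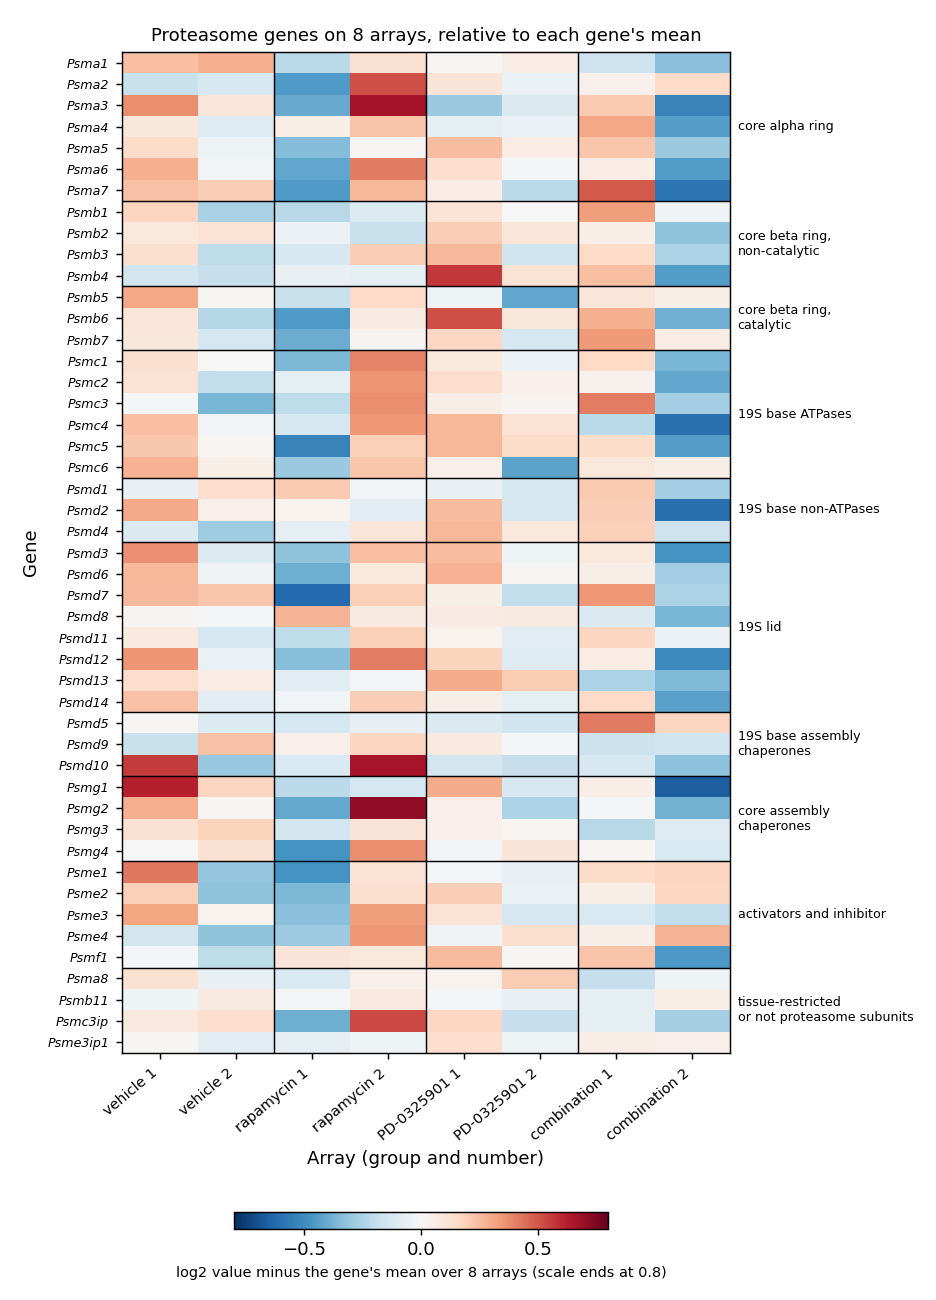
The log2 value of each of the 47 genes on each of the 8 arrays, minus the gene's mean over all arrays, with rows ordered by role and lines between groups. Rapamycin array 1 and combination array 2 are mostly blue (41 and 37 of 47 genes below their mean), and rapamycin array 2 is mostly red (9 of 47 below).

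Within the vehicle group 38 of the 47 genes were lower on array 2 than on array 1, with a median difference of -0.20. Over all 19938 genes 46.7% were higher on vehicle array 2, and the median difference was -0.02. Within the rapamycin group 41 of 47 were higher on array 2, by a median of 0.42, against 52% of all genes and a median of 0.01. This was the widest gap of the 4 groups. PD-0325901 array 2 was the lower one for 40 of 47 genes, with a median of -0.14, where 44.8% of all genes were higher on it. Combination array 2 was the lower one for 39 of 47, with a median of -0.36, where 53.8% of all genes were higher. In each group the genes thus leaned to 1 array, while all genes together were spread about evenly.

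**Figure D2:**
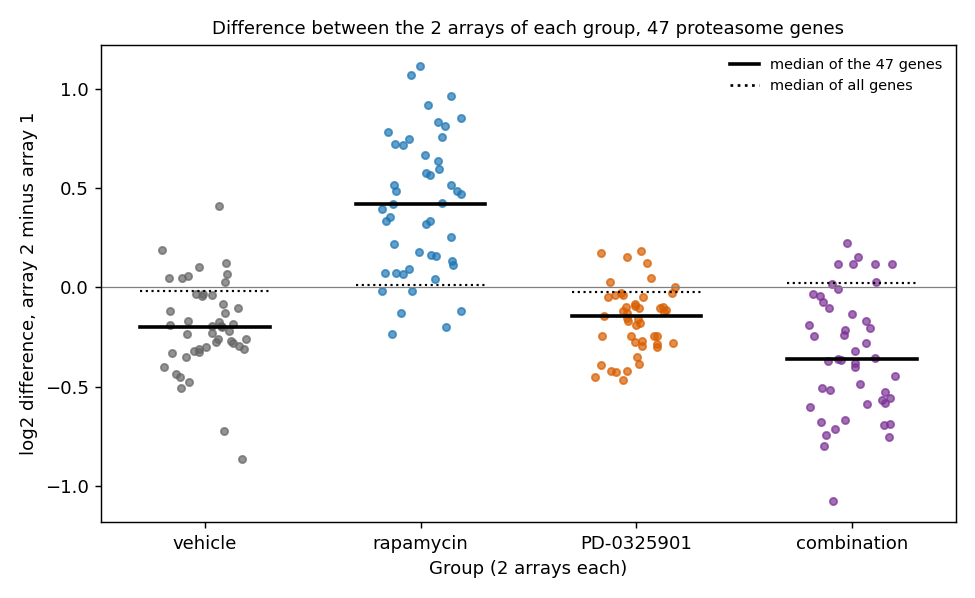
Log2 difference between array 2 and array 1 of each group, 1 point per gene for the 47 genes, with solid lines for their median and dotted lines for the median of all genes. The rapamycin points lie mostly above 0 (median 0.42) and the combination points mostly below 0 (median -0.36), while the dotted lines stay near 0.

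The direction in which most of the 47 genes leaned was kept in all 4 groups by 28 of them (59.6%), a count made after the values were seen. Of all genes 9.81% kept those 4 directions. The directions were set by the majority of these same 47 genes, so a higher share among them was built in and tests nothing. The counts by role have the same limit. Kept in all 4 groups were the 6 ATPases of the 19S base (Psmc1 to Psmc6), which unfold the substrate, the 3 catalytic subunits and 7 of the 8 lid subunits. The directions were also kept by 2 of 3 chaperones of base assembly, 2 of 4 non-catalytic beta subunits and 2 of 4 chaperones of core assembly. The alpha ring, which gates the core, kept them in 3 of 7 genes. Base subunits that are not ATPases kept them in 1 of 3, and the activators and inhibitor in 1 of 5. Of the 4 tissue-restricted or pattern-only genes 1 kept them. The combination array 2 held the lowest value of 21 of the 47 genes (44.7%) and the highest of 0, while 12.3% of all genes were lowest and 13.7% highest there. Rapamycin array 1 held the lowest value of 14 (29.8%, against 16.6% of all genes), and rapamycin array 2 the highest of 15 (31.9%, against 16.4% of all genes).

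The gap between arrays set the scale on which any treatment difference was read. The largest gap within a group exceeded the range of the 4 group means for 38 of the 47 genes (80.9%), a share near the 71.3% of all genes. The median largest gap was 0.57 for the 47 genes and 0.38 for all genes. The median range of the group means was 0.32 and 0.27. The 9 genes whose group means ranged wider than any gap were Psma1, Psma8, Psmb5, Psmc4, Psmd4, Psmd5, Psmd8, Psmd13 and Psmg3. Of these, Psma8 lay below the array medians on every array.

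Other marker lists moved between the same arrays. Markers of cycling cells (7 genes measured, among them Mki67 and Top2a) were higher on rapamycin array 2 than on array 1 for 7 of 7, by a median of 1.29, and lower on PD-0325901 array 2 for 6 of 7 and on combination array 2 for 5 of 7. On the vehicle arrays 4 of the 7 were lower on array 2, with a median of -0.04. Their centred median was lowest on rapamycin array 1 (-0.68) and highest on rapamycin array 2 (0.54), the arrays at the ends of the rapamycin gap. Rrm2, a ribonucleotide reductase subunit made in S phase, read 8.92 on rapamycin array 1 and 11.22 on array 2.

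Skeletal muscle markers were higher on array 2 for 6 of 6 genes in the rapamycin group (median 2.89) and for 6 of 6 in the combination group (median 1.27), so they went with the proteasome genes in the first and against them in the second. Their centred medians ran from -0.88 to 1.91 over the arrays. Fibroblast markers were lower on rapamycin array 2 for 6 of 6 genes and higher on vehicle array 2 for 6 of 6, opposite to the proteasome genes in both groups. Interferon response genes had their highest centred median, 1.16, on combination array 2, where the proteasome genes were lowest.

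The list of ERK target genes went with the proteasome genes in the drug groups: 9 of 10 were higher on rapamycin array 2, 8 of 10 lower on PD-0325901 array 2 and 7 of 10 lower on combination array 2, and on the vehicle arrays 5 were higher and 5 lower. Macrophage markers were lower on array 2 for 7 of 8 genes in the vehicle group and for 7 of 8 in the combination group, higher for 5 of 8 in the rapamycin group, and split 4 and 4 in the PD-0325901 group. The direction of the proteasome genes was kept in all 4 groups by 3 of 8 macrophage markers, 3 of 7 cycling cell markers and 3 of 10 ERK targets. Of all genes 9.81% kept it. It was kept by 0 of 8 T and NK cell markers and 0 of 5 interferon response genes. The same held for 0 of 6 markers each of endothelium, Schwann cells, fibroblasts and skeletal muscle, and 0 of 3 erythroid markers. The part of any of these lists in the result was not tested.

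The catalytic subunits cleave the substrate inside the core. Psmb5, the chymotrypsin-like subunit and target of bortezomib, read 12.31 and 12.004 with vehicle, 11.82 and 12.15 with rapamycin, 11.96 and 11.58 with PD-0325901, and 12.09 and 12.05 with the combination. Both PD-0325901 arrays lay below both vehicle arrays, and the other groups overlapped vehicle. The log2 difference of PD-0325901 from vehicle was -0.39 (SE 0.19, limma adjusted p = 0.947). Leaving out vehicle array 1 gave -0.24, and leaving out PD-0325901 array 2 gave -0.195.

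Psmb6, the caspase-like subunit, read 11.26 and 10.93 with vehicle, 10.71 and 11.22 with rapamycin, 11.67 and 11.25 with PD-0325901, and 11.44 and 10.78 with the combination. Psmb7, the trypsin-like subunit, read 11.05 and 10.82 with vehicle, 10.57 and 10.99 with rapamycin, 11.13 and 10.83 with PD-0325901, and 11.30 and 11.02 with the combination. All treated groups overlapped vehicle in both genes. On rapamycin array 1 all 3 catalytic genes stood below their vehicle values, and on rapamycin array 2 all 3 lay between the vehicle values.

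In the alpha ring the gaps were widest in Psma3, Psma2 and Psma7. Psma3 read 11.27 and 11.002 with vehicle, 10.50 and 11.57 with rapamycin, 10.61 and 10.79 with PD-0325901, and 11.11 and 10.37 with the combination. The rapamycin arrays thus held both its second lowest value and its highest. Its 2 further probe sets gave rapamycin values of 10.19 and 11.26, and of 10.15 and 11.21, so the gap was present on every probe set of the gene.

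Psma1 was the alpha ring gene with the largest difference between the combination and vehicle. It read 11.06 and 11.10 with vehicle, 10.60 and 10.94 with rapamycin, 10.83 and 10.88 with PD-0325901, and 10.65 and 10.48 with the combination. All 6 treated arrays lay below both vehicle arrays. How many of all genes have every treated array on 1 side of both vehicle arrays was not counted, here or for the genes below. The log2 difference from vehicle was -0.51 with the combination (SE 0.14, limma adjusted p = 0.436), -0.31 with rapamycin (adjusted p = 0.964) and -0.23 with PD-0325901 (adjusted p = 0.996). None passed the threshold, and the rapamycin difference was -0.14 without rapamycin array 1 and -0.48 without rapamycin array 2.

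**Figure D3:**
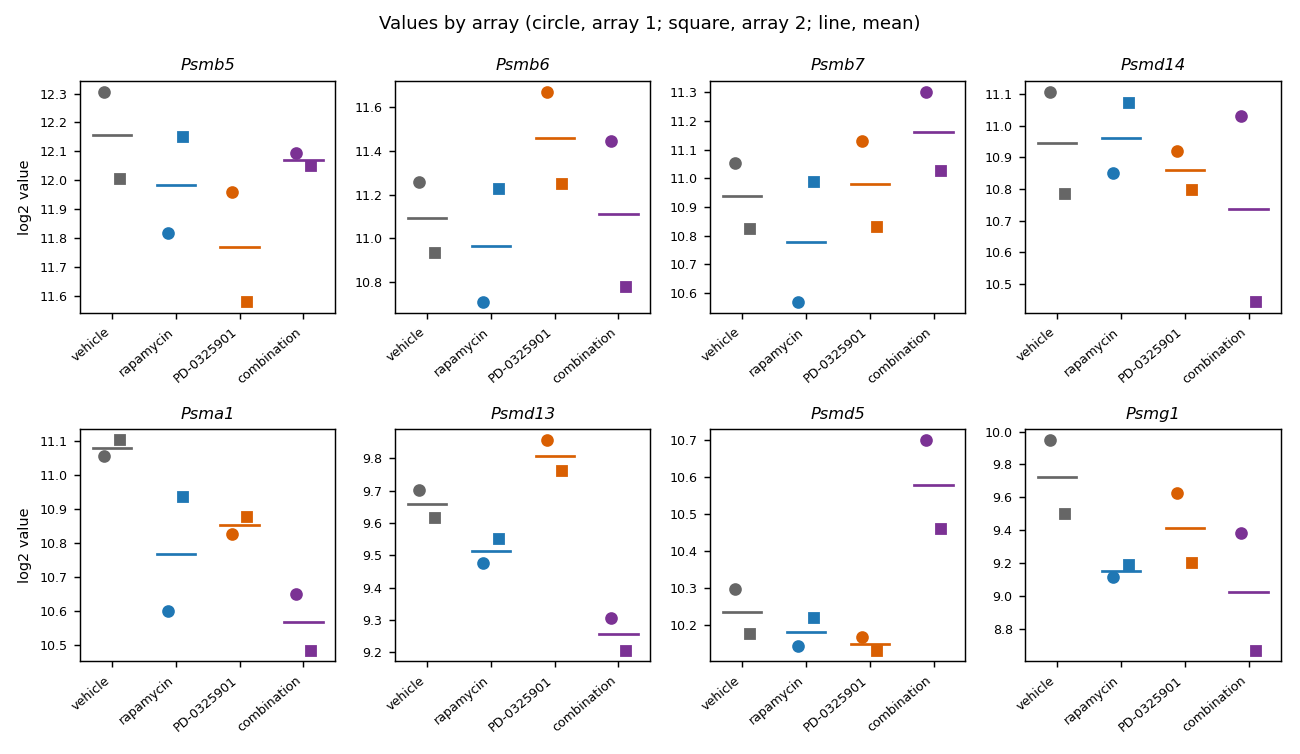
Log2 values of 8 proteasome genes on every array by treatment group, with circles for array 1, squares for array 2 and lines for group means; each panel has its own vertical axis, which does not start at 0. Psmd13 and Psmd5 have combination arrays apart from all others (9.31 and 9.21 for Psmd13, 10.70 and 10.46 for Psmd5). The share of all genes with such arrays was not counted. In Psmb6 and Psmb7 every treated group overlaps vehicle, and in Psmb5 both PD-0325901 arrays lie below both vehicle arrays.

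The non-catalytic beta subunits Psmb1 to Psmb4 complete the inner rings. Psmb4 had the largest positive difference of the 47 genes with PD-0325901. It read 11.62 and 11.59 with vehicle, 11.71 and 11.70 with rapamycin, 12.34 and 11.89 with PD-0325901, and 12.01 and 11.32 with the combination. Both single-drug groups lay above vehicle, and the combination arrays lay on either side of it. The log2 difference with PD-0325901 was 0.51 (SE 0.25, limma adjusted p = 0.952), and 0.28 without PD-0325901 array 1. Psmb2 lay lower on all 4 arrays with rapamycin (11.42, 11.29, 11.52 and 11.15) than on the 4 without it (11.56, 11.59, 11.67 and 11.57).

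The 19S lid carries Psmd14, the metalloprotease that removes ubiquitin chains. Psmd14 read 11.11 and 10.79 with vehicle, 10.85 and 11.07 with rapamycin, 10.92 and 10.80 with PD-0325901, and 11.03 and 10.44 with the combination. Every treated group overlapped vehicle, and the low value stood on combination array 2.

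Psmd13, a scaffold subunit of the lid, had a largest gap of 0.10 within a group. It read 9.70 and 9.62 with vehicle, 9.48 and 9.55 with rapamycin, 9.86 and 9.76 with PD-0325901, and 9.31 and 9.21 with the combination. No group overlapped another, and the order was PD-0325901, vehicle, rapamycin, combination. The combination was lower than vehicle by a log2 difference of -0.40 (SE 0.10, limma adjusted p = 0.404) and lower than PD-0325901 by -0.55 (limma adjusted p = 0.9998). The main effect of rapamycin, the mean of its differences without and with PD-0325901, was -0.35 (SE 0.07, limma adjusted p = 0.752). These values did not pass the threshold over all genes.

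Psmd8, another lid subunit, read 10.85 and 10.81 with vehicle, 11.10 and 10.90 with rapamycin, 10.90 and 10.90 with PD-0325901, and 10.71 and 10.46 with the combination. Both combination arrays lay below all other arrays. How many of all genes have both combination arrays beyond all others was not counted, for Psmd8 or for Psmd13, Psmc4 and Psmd5. The log2 difference from rapamycin was -0.41 (SE 0.13, limma adjusted p = 0.614), and the test of whether the drugs combine additively gave an interaction of -0.48 (limma adjusted p = 0.9999).

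Among the base subunits, Psmd4, a ubiquitin receptor, read 9.89 and 9.73 with vehicle, 9.94 and 10.11 with rapamycin, 10.27 and 10.09 with PD-0325901, and 10.20 and 9.85 with the combination. It had the smallest p of the 47 genes for PD-0325901 against vehicle, with a log2 difference of 0.37 (SE 0.16, limma adjusted p = 0.881). The ATPase Psmc4 read 10.53 and 10.27 with vehicle, 10.15 and 10.64 with rapamycin, 10.56 and 10.41 with PD-0325901, and 10.08 and 9.70 with the combination. Its combination arrays lay below all others, and the log2 difference from PD-0325901 was -0.60 (SE 0.22, limma adjusted p = 0.9998).

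Psmd5, a chaperone that holds ATPases during assembly of the base and is absent from the finished proteasome, went the other way. It read 10.30 and 10.18 with vehicle, 10.14 and 10.22 with rapamycin, 10.17 and 10.13 with PD-0325901, and 10.70 and 10.46 with the combination. The combination arrays lay above all 6 others. The log2 difference was 0.34 from vehicle (SE 0.12, limma adjusted p = 0.475), 0.40 from rapamycin (adjusted p = 0.614) and 0.43 from PD-0325901 (adjusted p = 0.9998), and the interaction was 0.49 (limma adjusted p = 0.9999). The difference from vehicle was 0.22 without combination array 1. Of the other base chaperones, Psmd10 ran from 9.36 to 10.35 and Psmd9 from 8.93 to 9.34, and no combination array of either lay above both vehicle arrays.

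The core chaperones Psmg1 to Psmg4 pair up to build the alpha ring. All 4 had lower means than vehicle in each of the 3 treated groups, with median log2 differences of -0.19 for PD-0325901, -0.14 for rapamycin and -0.33 for the combination. These comparisons share the vehicle arrays. Psmg1 read 9.95 and 9.50 with vehicle, 9.12 and 9.19 with rapamycin, 9.62 and 9.20 with PD-0325901, and 9.38 and 8.67 with the combination. The rapamycin and combination arrays lay below the vehicle arrays, by log2 differences of -0.57 (SE 0.29, limma adjusted p = 0.964) and -0.70 (SE 0.29, limma adjusted p = 0.552). The rapamycin difference was -0.35 without vehicle array 1. Psmg3 read 8.07 and 8.13 with vehicle, 7.80 and 8.06 with rapamycin, 7.99 and 7.97 with PD-0325901, and 7.73 and 7.85 with the combination. All 6 treated arrays lay below both vehicle arrays, and the log2 difference with the combination was -0.31 (SE 0.12, limma adjusted p = 0.524).

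Psme1 and Psme2 encode the 11S activator, which interferon induces. Psme1 read 10.95 and 10.22 with vehicle, 10.04 and 10.64 with rapamycin, 10.52 and 10.47 with PD-0325901, and 10.67 and 10.70 with the combination. Psme2 read 10.88 and 10.37 with vehicle, 10.33 and 10.82 with rapamycin, 10.89 and 10.64 with PD-0325901, and 10.74 and 10.86 with the combination. In both genes every treated group overlapped the vehicle arrays, and the low arrays were vehicle 2 and rapamycin 1. The Psme2 value comes from a probe set of Psme2 alone, and a second one that Psme2b shares was left out.

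Psme4, the activator PA200, read 11.03 and 10.86 with vehicle, 10.89 and 11.53 with rapamycin, 11.15 and 11.31 with PD-0325901, and 11.22 and 11.45 with the combination. Its combination difference from vehicle was 0.39 (SE 0.22, limma adjusted p = 0.669). Psmf1, an inhibitor of the core, ran from 9.04 on combination array 2 to 9.75 on PD-0325901 array 1. The thymic Psmb11 ran from 6.95 to 7.10 and Psma8 from 6.33 to 6.72. Both lay below the array medians of 7.79 to 7.90 on every array, so their small ranges are those of low signals. Psmc3ip, which acts in meiotic recombination, ran from 7.40 to 8.32 with both ends in the rapamycin group.

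No proteasome gene passed an adjusted p of 0.05 in any of the 8 comparisons, and 0% of all 19938 genes did in the same limma fits. With PD-0325901 against vehicle 23 of the 47 genes were higher and 24 lower (53.8% of all genes were lower), and the median log2 difference was -0.02, as over all genes. None had an unadjusted p under 0.05 in either direction, where 3.47% of all genes were higher and 2.38% lower at that level. The groups did not overlap for 8 genes that were higher (17.6% of all genes) and 9 that were lower (20.9%). The members' shares, 17.0% and 19.1%, stood near that background.

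With rapamycin against vehicle 16 genes were higher and 31 lower, with a median of -0.07, and 54.1% of all genes were lower with a median of -0.02. Again 0 genes had an unadjusted limma p under 0.05 (2.77% of all genes higher, 2.15% lower). The groups did not overlap for 4 genes that were higher (12.5% of all genes) and 7 that were lower (17.9%). The median depended on which rapamycin array was used: it was 0.12 without rapamycin array 1 and -0.29 without rapamycin array 2, and 0.027 without vehicle array 1.

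With the combination against vehicle 13 genes were higher and 34 lower, with a median of -0.15, where 53.7% of all genes were lower with a median of -0.02. By role, 6 of 7 alpha subunits, 5 of 6 base ATPases, 7 of 8 lid subunits and all 4 core chaperones were lower. So were 2 of 4 non-catalytic beta subunits, 2 of 3 base subunits that are not ATPases and 2 of 3 base chaperones. Higher were 3 of 5 activators and inhibitor (median 0.10) and 2 of 3 catalytic subunits. The catalytic median was only 0.016, the difference of Psmb6. At an unadjusted limma p under 0.05 there were 3 lower genes, Psmd13, Psma1 and Psmg3 (4% of all genes), and 1 higher, Psmd5 (5.08%). The groups did not overlap for 10 lower genes (22.3% of all genes) and 4 higher (17.9%). The median was 0.033 when combination array 2 was left out and -0.36 when combination array 1 was, so the lean to lower values rested on combination array 2.

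**Figure D4:**
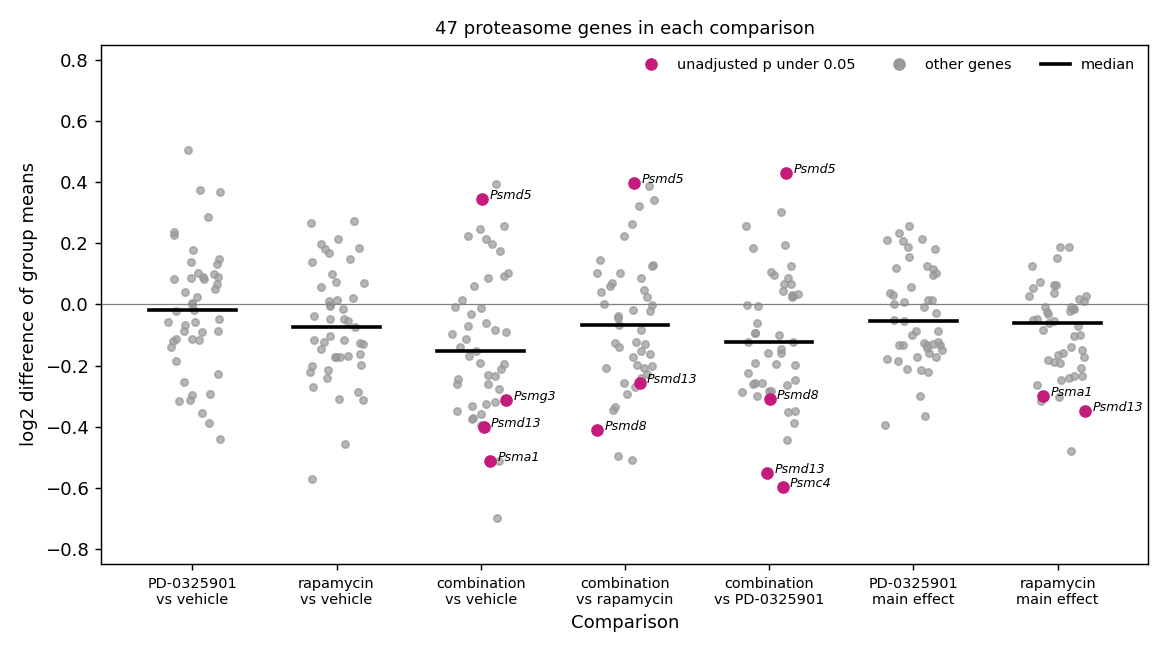
Log2 differences of group means for the 47 genes in 5 pairwise comparisons and 2 main effects, 1 point per gene with a bar for the median; named points had an unadjusted limma p under 0.05. The medians lie between -0.15 and -0.02, and none of the points passed the adjusted threshold.

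The combination was set against each drug alone to ask what the second drug added. Against rapamycin 18 genes were higher and 29 lower (median -0.07), where 51.7% of all genes were lower, with Psmd8 and Psmd13 lower (2.71% of all genes) and Psmd5 higher (3.95%) at an unadjusted limma p under 0.05. The median was 0.17 when rapamycin array 2 was left out, 0.12 for combination array 2 and -0.27 for combination array 1. Against PD-0325901 16 were higher and 31 lower (median -0.12), where 52.1% of all genes were lower, with Psmd13, Psmc4 and Psmd8 lower (1.27% of all genes) and Psmd5 higher (1.74%). That median was 0.01 without combination array 2. Both comparisons share the combination arrays, so the repeated names are not separate evidence.

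Over all 4 arrays with and 4 without PD-0325901, 20 genes were higher and 27 lower, with a median main effect of -0.05, and 54% of all genes were lower. None had an unadjusted limma p under 0.05, where 5.47% of all genes were higher and 4.14% lower. The arrays with and without the drug overlapped in all 47, while 3.34% of all genes were higher and 2.39% lower with no overlap. For rapamycin 13 were higher and 34 lower, with a median of -0.06, where 53.8% of all genes were lower. Psmd13 and Psma1 had an unadjusted limma p under 0.05 on the lower side (2.4% of all genes), and 0 genes on the higher side (3.15%). For Psmd13 and Psmb2 the 4 arrays with rapamycin lay below the 4 without it, which 1.94% of all genes did, and 0 genes lay wholly above (1.41% of all genes). In the test of the interaction 20 genes were above 0 and 27 below, where 48.2% of all genes were below. Psmd5 was above 0 (1.03% of all genes) and Psmd8 and Psmd13 were below 0 (1.14%) at an unadjusted limma p under 0.05. The median 95% interval around a member's difference was 0.56 to either side for a pairwise comparison and 0.40 for a main effect. A p that misses the threshold does not show that the groups were alike, and the half-width ran from 0.24 to 0.97 over the genes in a pairwise comparison.

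Genes that work with the proteasome without a Psm name were read from 6 lists, in which 23 genes had a probe set of their own. Pomp, the chaperone that completes the core, read 10.72 and 10.79 with vehicle, 10.22 and 10.42 with rapamycin, 10.31 and 10.31 with PD-0325901, and 10.27 and 9.96 with the combination. All 6 treated arrays lay below both vehicle arrays. The log2 difference from vehicle was -0.64 with the combination (SE 0.14, limma adjusted p = 0.36), -0.44 with rapamycin (adjusted p = 0.964) and -0.44 with PD-0325901 (adjusted p = 0.721). Akirin2, which brings proteasomes into the nucleus, read 10.40 and 10.37 with vehicle and 10.29 and 10.08 with rapamycin. It read 10.11 and 10.08 with PD-0325901 and 10.20 and 10.19 with the combination. Here too every treated array lay below both vehicle arrays. The log2 difference of PD-0325901 from vehicle was -0.29 (limma adjusted p = 0.79).

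Nfe2l1, the factor named above, read 10.54 and 10.56 with vehicle, 10.86 and 10.76 with rapamycin, 10.65 and 10.59 with PD-0325901, and 10.66 and 11.002 with the combination. All 6 treated arrays lay above both vehicle arrays. Its main effect of rapamycin was 0.24 (SE 0.09, limma adjusted p = 0.89), and 0.15 without combination array 2. Nfe2l2, its relative in the oxidative stress response, ran from 10.56 to 11.08, lowest on a vehicle array and highest on a rapamycin array. Its PD-0325901, rapamycin and combination differences from vehicle were 0.18, 0.12 and 0.11. Of the genes with the motif printed above, none had an unadjusted p under 0.05 in any comparison.

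The immunoproteasome catalytic genes replace the constitutive ones under interferon. Psmb8 read 9.11 and 8.55 with vehicle, 8.43 and 8.33 with rapamycin, 8.87 and 9.35 with PD-0325901, and 9.30 and 9.26 with the combination. Psmb9 read 9.47 and 8.96 with vehicle, 8.89 and 8.79 with rapamycin, 9.31 and 9.56 with PD-0325901, and 9.63 and 9.75 with the combination. Both were lowest on the rapamycin arrays, and their combination arrays lay above the vehicle and rapamycin arrays. The combination exceeded rapamycin by a log2 difference of 0.90 for Psmb8 (SE 0.23, limma adjusted p = 0.59) and 0.85 for Psmb9 (SE 0.19, limma adjusted p = 0.58).

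Of the 3 immunoproteasome genes 0 kept the array directions of most constitutive genes in all 4 groups, against 9.81% of all genes. The constitutive genes themselves set those directions, and 0 of 7 partners of the 26S particle kept them either. The count therefore does not set the immunoproteasome genes apart. Psmb10 read 9.97 and 9.47 with vehicle, 9.16 and 10.70 with rapamycin, 9.79 and 9.85 with PD-0325901, and 10.28 and 9.99 with the combination, so its lowest and highest values were both with rapamycin. T and NK cell markers were higher with the combination than with rapamycin for 8 of 8 genes (median 0.92). Interferon response genes were higher for 5 of 5 (median 1.10) and macrophage markers for 6 of 8 (median 0.35). Endothelial markers were lower for 6 of 6 (median -0.78), and 51.7% of all genes were lower. The part of these lists in the Psmb8 and Psmb9 values was not tested.

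**Figure D5:**
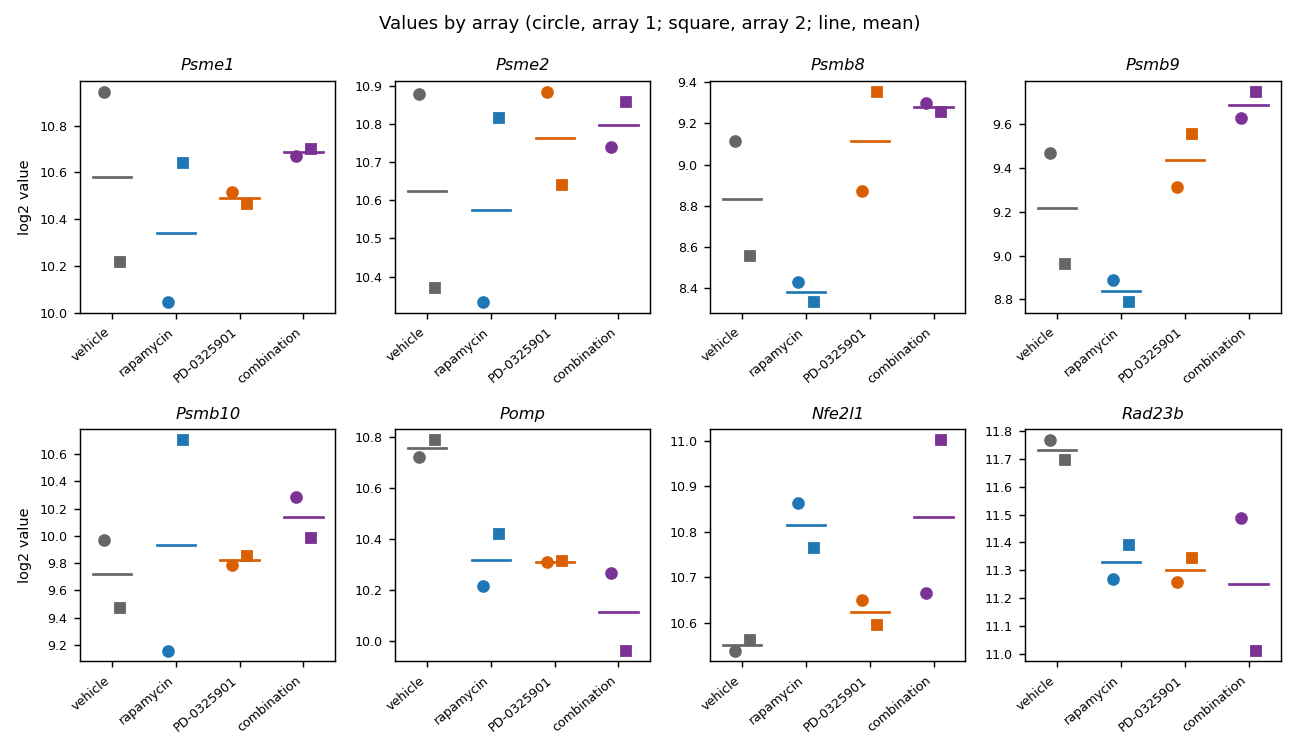
Log2 values of the 11S activator genes, the immunoproteasome genes, Pomp, Nfe2l1 and Rad23b on every array by treatment group, with circles for array 1, squares for array 2 and lines for group means; each panel has its own vertical axis, which does not start at 0. Pomp and Rad23b have both vehicle arrays above all 6 treated arrays, and Nfe2l1 has both below. The share of all genes with such a pattern was not counted.

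Partners of the 26S particle were lower with PD-0325901 than with vehicle for 7 of 7 measured genes (median -0.10) and lower with the combination for 7 of 7 (median -0.25), where 53.8% and 53.7% of all genes were lower. The smallest of these differences were -0.015 and -0.0017. With rapamycin 5 of 7 were lower (median -0.09), where 54.1% of all genes were. These comparisons share the vehicle arrays. The deubiquitinase gene Uchl5 had a PD-0325901 main effect of -0.38 (SE 0.14, limma adjusted p = 0.48). Ecpas, a scaffold of the 26S particle, had a rapamycin main effect of -0.29 (SE 0.10, limma adjusted p = 0.86). The ubiquitin receptor gene Adrm1 had no probe set of its own and was not analysed here.

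Of the shuttle factors that deliver substrates, Rad23b read 11.77 and 11.70 with vehicle, 11.27 and 11.39 with rapamycin, 11.26 and 11.34 with PD-0325901, and 11.49 and 11.01 with the combination. All treated arrays lay below the vehicle arrays, with log2 differences of -0.43 for PD-0325901 (SE 0.17, limma adjusted p = 0.85), -0.40 for rapamycin (limma adjusted p = 0.96) and -0.48 for the combination (limma adjusted p = 0.48). The last was -0.24 without combination array 2. Ubqln2 had a PD-0325901 main effect of -0.40 (SE 0.15, limma adjusted p = 0.49), and -0.26 without rapamycin array 2. Uba6, a ubiquitin-activating enzyme and the single measured gene of 6 in the list of ubiquitin supply, had a PD-0325901 main effect of -0.34 (SE 0.12, limma adjusted p = 0.47). No pathway gene passed the adjusted threshold.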

How the data were processed

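Per the labels, total RNA (Trizol, then RNeasy) was amplified and biotin-labelled with a NuGEN Applause kit. The deposited table holds log2 values of the authors, 1 per probe set and array; the software and normalization behind them were not given in the sources used here. Of 35512 probe sets 21789 had a single gene symbol, which gave 19938 genes. Low values were kept.

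Group means were fitted with limma 3.58.1 (lmFit, eBayes) in R 4.3.3 on all genes and 8 arrays, with 4 residual and 1.98 prior degrees of freedom, two-sided tests and Benjamini-Hochberg adjustment over all genes. An exact permutation test of 2 against 2 arrays cannot go below 0.333. The fit was tested on simulated data. The number of arrays limits the precision. Groups came from sample titles.

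The members, lists and tests were chosen with earlier results of these data known. Values on every array are given for set genes (Psmb5, Psmb6, Psmb7, Psmd14, Psme1, Psme2) and for the 2 members of smallest p in each direction of the comparisons with vehicle and the main effects. Of each pathway list up to 2 genes of smallest p per direction were named, with Nfe2l1, Nfe2l2, Pomp, Psmb8, Psmb9 and Psmb10. Psma3, Psmb2 and Rrm2 were given in full or in part after their values were seen, as were the members of smallest p in the other comparisons (Psmc4). Alternatives were quantile normalization, median centring, a level filter, a variance trend, the mean of probe sets, a replicate block, only the groups compared, a threshold of 0.1, the 43 proteasome genes alone, and leaving out each array.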

Additional observations from a re-analysis of the deposited data

How the results depend on the processing

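In each of the 8 comparisons the count of proteasome genes past the adjusted threshold was 0 under every alternative run, including a threshold of 0.1. The median log2 difference kept within the replicate SD of 0.20 except when an array was left out. Leaving out each array in turn gave -0.11 to 0.09 for PD-0325901 against vehicle, -0.29 to 0.12 for rapamycin against vehicle, -0.36 to 0.033 for the combination against vehicle, -0.27 to 0.17 for the combination against rapamycin, -0.31 to 0.01 for the combination against PD-0325901, -0.13 to 0.05 for the PD-0325901 main effect, -0.17 to 0.02 for the rapamycin main effect and -0.31 to 0.19 for the interaction. A group left with 1 array was assumed to vary like the others. Array numbers did not pair the samples (correlation of same-numbered deviations -0.28 to 0.18). The fit with the array number as a replicate block gave 0 genes past the threshold. Its medians against vehicle were -0.02, -0.07 and -0.15 for PD-0325901, rapamycin and the combination. Each group holds 1 array of each number, so this block could not change any difference, and the unchanged medians test nothing. Counts at an unadjusted p under 0.05 are small and moved more: lower genes for the combination against vehicle were 3, and 1 to 8 with an array left out, and for the rapamycin main effect 2, and 1 to 9. The 2 members of smallest p per direction in the comparisons with vehicle and the main effects were recomputed in those comparisons. So were the members and pathway genes at an unadjusted p under 0.05, in each comparison where they had it. None changed direction or its side of the adjusted threshold there. Other named genes were not recomputed. Psmg3 gave no value with the level filter, and the interaction has no fit with only 2 groups.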
